A study of Mus musculus with 7 samples.

Results

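Microglia, blood vessel cells, fibroblasts, choroid plexus and ependymal cells and red blood cells lie in or beside the dentate gyrus (DG) but are not neural stem and progenitor cells (NSPCs). Their transcripts were measured here through 44 marker genes: 17 of microglia, 12 of endothelium, 7 of mural cells (pericytes and vascular smooth muscle), 3 of fibroblasts, 3 of choroid plexus or ependyma and 2 of red blood cells. The genes were chosen by name as markers of these cells, to ask how much of their RNA is left in NSPC cultures and how much whole DG holds. All 44 are among the 50600 entries of the bulk count table, and 18 are among the 15536 genes of the single-cell table. The other 26 have no row in the single-cell table used here.

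Bulk libraries came from 4 primary adherent NSPC cultures of C57Bl6J mice aged 6 to 8 weeks, at passages 6 to 15, named F1 and F2 (female) and M1 and M2 (male). They were grown on poly-d-lysine and laminin in Neurobasal A medium with B27, EGF (20 ng/ml) and FGF2 (20 ng/ml), growth factors that keep NSPCs dividing. They were compared with the whole DG of 2 C57Bl6J mice aged 7 to 9 weeks (F1, a female, and M2, a male). The cells of 3 cultures, 2 female and 1 male, from mice aged 6 to 9 weeks, were mixed in 1 single-cell library. Culture libraries were made with a low-input full-length kit and whole DG libraries with a directional kit, so every culture against DG value also compares kits, and the parts of kit and group cannot be told apart. The sources used here state neither whether mice were perfused nor how the culture names relate to the tissue names.

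Microglia are the resident macrophages of the brain. They depend on the receptor encoded by Csf1r, read neuronal signals through Cx3cr1 and P2ry12, and make the chains of complement C1q. Endothelial cells form the blood-brain barrier with tight junctions (Cldn5) and transporters (Slco1c1, Abcb1a), and mural cells wrap them, pericytes bearing the receptor Pdgfrb and smooth muscle cells the contractile proteins of Acta2, Tagln and Myh11. Microglia, vessel cells and blood arise outside the neural lineage, whereas the ependyma of the ventricle wall and the choroid plexus descend from neuroepithelium.

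Deposited counts summed to between 9917697 and 11747408 in the cultures and to 16676618 and 17351636 in whole DG. A count of 3, the floor used below, is 0.248 to 0.293 CPM (counts per 1000000 counts of the scaled library) in a culture and 0.182 to 0.194 CPM in whole DG. Of 10 stem and progenitor genes 8 were higher in cultures, and Sox2 and Hes5, transcription factors of neural stem cells, were lower, at 16.8% and 15.4% of whole DG. Summed CPM of the 10 genes stood at 708 ± 26.7% of whole DG (SD, n = 4) and of 6 cell division genes at 2032 ± 430.2%. In bulk cultures Sox2 stood at 6.11 ± 1.18 CPM, far below Sox9 at 208 ± 53.5 CPM. In the single-cell library Sox2 was seen in 47.7% of cells, Sox9 in 38.7% and Hes5 in 2.43%. Why the measures of Sox2 differ was not tested. Summed CPM of 6 neuronal genes stood at 0.130 ± 0.0188%, of 6 astrocyte genes at 15.8 ± 6.83% and of 6 oligodendrocyte genes at 8.69 ± 1.58% of whole DG.

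Microglial genes move together in what follows, and many are known targets of the macrophage transcription factor PU.1, which binds a core spelled GAGGAAG. RefSeq promoters (GRCm38.p6, 250 bases before to 50 after the start) were found for 24 of the 44 genes, 11 of them microglial. The core was searched on both strands, where its reverse complement reads CTTCCTC. It was present in 4 of the 11 microglial promoters (36.4%), in 2 of 7 endothelial ones (28.6%), in 0 of 3 mural ones and in 4152 of all 27025 genes (15.4%). The 4 microglial matches are shown as 30-base windows on the gene's strand, 5′ to 3′, with the core in capitals.
Fcrls, chr3:87263650-87263679 (−): aagtctgtaaaGAGGAAGgacgtttgcttt
Laptm5, chr4:130913266-130913295 (+): gcagcctgtggCTTCCTCttttttgttctg
C1qc, chr4:136893090-136893119 (−): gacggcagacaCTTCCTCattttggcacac
Trem2, chr17:48346349-48346378 (+): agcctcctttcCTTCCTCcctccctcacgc
The core begins 144, 39, 194 and 41 bases before the RefSeq start of Fcrls, Laptm5, C1qc and Trem2. The windows of Fcrls, Laptm5 and C1qc lie in upstream stretches that other annotated transcripts of the same genes reach into. Trem2 has no annotated exon in its stretch, which is therefore shown whole (chr17:48346151-48346400, +) for the setting of its match.
Trem2: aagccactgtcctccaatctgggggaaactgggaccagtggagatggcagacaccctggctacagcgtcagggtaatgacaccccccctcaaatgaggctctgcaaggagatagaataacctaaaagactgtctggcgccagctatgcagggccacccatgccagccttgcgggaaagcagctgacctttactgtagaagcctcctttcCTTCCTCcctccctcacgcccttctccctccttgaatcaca
A match says only that these letters stand there. The GATA core AGATAA was in 2 of the 11 microglial promoters (18.2%) against 12.7% of all genes, and the CArG box bound by serum response factor in 0 of the 24 against 1.81% of all genes.

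The comparison of cultures with whole DG asked how much marker RNA remained after passage in NSPC medium. Of the 44 genes, 39 were lower in cultures, 1 was higher (Foxj1), 2 did not pass the test (Acta2 and Tagln) and 2 had too few counts to be tested (Higd1b and Folr1), by edgeR's quasi-likelihood test at a Benjamini-Hochberg adjusted p of 0.05. Over all 18088 genes tested, 77.3% were called, 41.7% as lower and 35.6% as higher. Only 12 of the 44 had enough counts to be tested between the cultures themselves, so most of the 42 passed the filter on low counts through whole DG alone. Every culture lay below both whole DG libraries for 40 of the 44 genes, against 45% of all tested genes, and above both for 1, against 38.6%. In bulk RNA, fewer cells of a type and less RNA per cell cannot be told apart.

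The sizes differed widely between genes. With genes at 0 counts set to their bound and those at 1 to 3 counts to the ratio of pooled counts, the median log2 difference of the 42 genes was −5.71. By edgeR values alone, the median over all tested genes was −0.13. By mean CPM, 18 of the 42 were under 1% of whole DG, 15 were between 1 and 10%, 6 between 10 and 100%, and 3 above 100%. Of the 44, 6 had no count in any culture and 18 had at most 3 counts in the 4 cultures together.

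**Figure D1:**
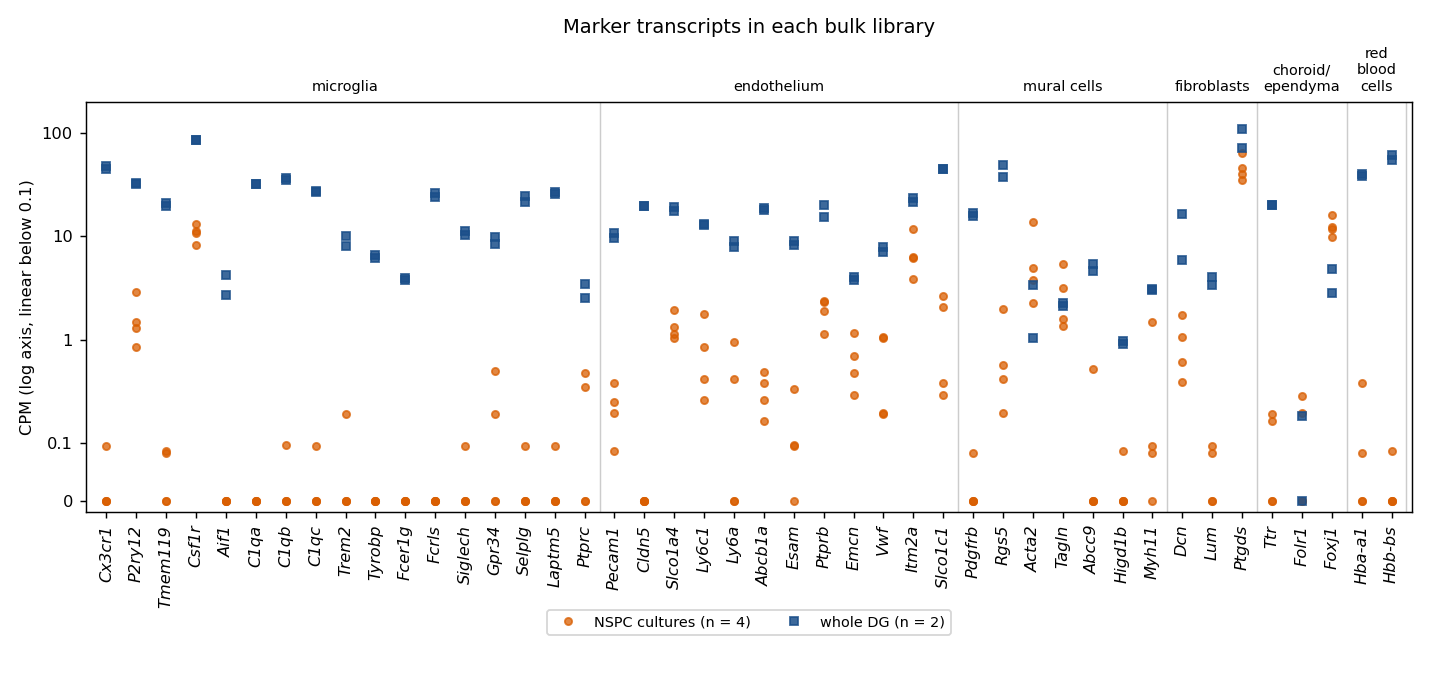
CPM of the 44 marker genes in each of the 4 NSPC cultures (circles) and 2 whole DG libraries (squares), grouped by cell class, on a log axis that is linear below 0.1. Circles lie below squares for 40 genes, with circles at 0 for many microglial genes, while Foxj1 has its circles above its squares and Acta2, Tagln and Folr1 overlap.

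All 17 microglial genes were lower in cultures, with a median level of 0.0907% of whole DG. The genes of the complement C1q chains, which lie side by side on chromosome 4 (C1qb at 136880129 to 136886187, C1qc at 136889804 to 136893065 and C1qa at 136895917 to 136898803, all on the minus strand of GRCm38), were close to absent. C1qa had 0 counts in each culture and 500 and 522 counts in whole DG F1 and M2, a level of 32.3 and 31.7 CPM, and was at least 473.2-fold lower. C1qb had 1 count, in culture M2, against 36.4 and 35.2 CPM in whole DG, and C1qc 1 count, in culture M1, against 27.4 and 26.8 CPM. Whole DG stood above the cultures by a ratio of 1588 for C1qb (exact Poisson interval 284.4 to 62760) and of 1201 for C1qc (215.1 to 47510). In whole DG, per length, C1qa and C1qb were at 30.8 and 32.9 RPKM (CPM per kilobase of exon) and C1qc at 14.0 RPKM.

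Surface receptors of microglia ranged more widely. Cx3cr1, the receptor of the neuronal chemokine fractalkine, had 1 count in culture M1 and none in the other cultures, against 744 and 738 counts in whole DG (48.0 and 44.9 CPM; ratio 2058, interval 368.9 to 81360). Tmem119, a surface protein used to tell microglia from other macrophages, had 1 count in each female culture and 0 in each male culture against 21.0 and 19.7 CPM. Siglech, a sialic acid binding lectin, Selplg, the ligand of P-selectin, and Laptm5, a lysosomal membrane protein, had 1 count each, all in culture M1. Gpr34, a receptor of a lysophospholipid, had 6, 0, 2 and 0 counts in cultures F1, F2, M1 and M2 (1.87% of whole DG).

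Signalling and phagocytic genes completed the class. Tyrobp, the adapter that carries the signal of the receptor Trem2, had 0 counts in all cultures and was at least 94.45-fold lower. Trem2 itself had 2 counts, both in culture M1, against 155 and 133 counts in whole DG (ratio 200, interval 54.87 to 1659). No culture held a count of Fcer1g, the shared chain of Fc receptors (at least 56.95-fold lower), of Fcrls, an Fc receptor-like protein (at least 371.3-fold), or of Aif1, the actin-binding protein IBA1 (at least 51.39-fold). Ptprc, which encodes CD45, the phosphatase on all white blood cells, had 0, 4, 5 and 0 counts in cultures F1, F2, M1 and M2 against 54 and 42 in whole DG (log2 difference −3.83, SE 0.82, edgeR adjusted p = 0.00276).

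A pair of receptor genes held nearly all microglial marker counts of the cultures. Csf1r stood at 11.3, 10.8, 8.31 and 13.1 CPM in cultures F1, F2, M1 and M2 and at 86.1 and 85.8 CPM in whole DG F1 and M2. The cultures were alike and far below the tissue, with a log2 difference of −2.98 (edgeR SE 0.18, adjusted p = 1.97e-06). P2ry12, the receptor for ADP that guides microglial processes, stood at 1.49, 1.30, 0.860 and 2.93 CPM against 32.6 and 31.8 CPM (log2 difference −4.29, SE 0.37, adjusted p = 1.38e-05). Csf1r made up 82.8% and both together 95.3% of the microglial CPM of the cultures. All 17 genes summed to 13.4, 12.5, 10.5 and 16.1 CPM in cultures F1, F2, M1 and M2, or 3.28 ± 0.580% of whole DG (SD, n = 4). The other 15 genes held 7, 5, 14 and 1 counts, which is 0.217% of whole DG (0.0346 to 0.474% in single cultures).

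Exons of both receptor genes overlap a gene on the opposite strand, and the sources used here do not state whether the deposited counts used strand. Csf1r shares 15.1% of its exon bases with Hmgxb3, which was abundant in both groups at 60.0, 72.2, 51.0 and 70.7 CPM in cultures F1, F2, M1 and M2 and 64.0 and 57.8 CPM in whole DG. P2ry12 shares 9 exon bases (0.354%) with Med12l, at 16.2, 12.4, 11.2 and 9.36 CPM in cultures against 65.0 and 65.4 CPM. The part of these neighbours in the Csf1r and P2ry12 counts was not tested. Among the 38 marker genes whose exons overlap no other gene, 36 were tested, 34 were lower and 1 was higher.

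**Figure D2:**
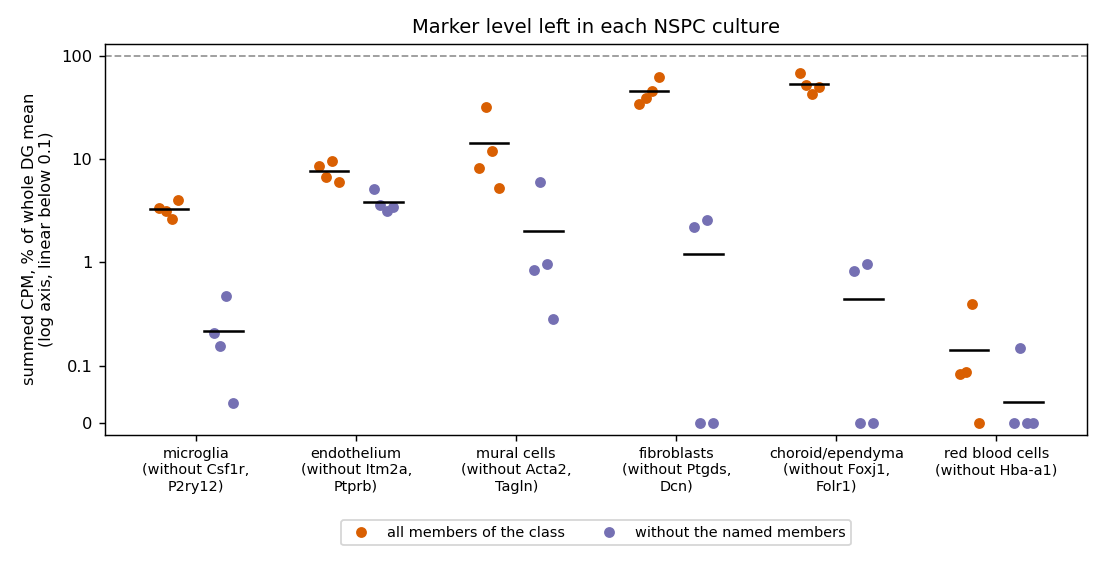
Summed CPM of each marker class in each of the 4 NSPC cultures as a percentage of the mean of the 2 whole DG libraries (dashed line, 100%), for all genes of the class and without the genes named under each class; bars are means of 4 cultures, and the log axis is linear below 0.1. Microglial markers drop from 3.28% to 0.217% without Csf1r and P2ry12, while endothelial markers drop less, from 7.68% to 3.82% without Itm2a and Ptprb. The genes left out are those with the highest mean CPM of their class in the cultures, a choice that favours a drop.

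All 12 endothelial genes were lower in cultures, but the class was less depleted than the microglial one, with a median level of 5.15% of whole DG. Summed CPM was 16.4, 12.8, 18.5 and 11.5 in cultures F1, F2, M1 and M2 against 197 and 189 in whole DG, or 7.68 ± 1.67% (SD, n = 4). Every endothelial gene had its 4 cultures below both tissue libraries.

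Junction and adhesion genes were at the low end. Cldn5, which encodes the main claudin of the barrier's tight junctions, had 0 counts in every culture and 304 and 322 counts in whole DG (19.6 CPM in each), at least 289.8-fold lower. Pecam1 (CD31, at endothelial junctions) had 3, 1, 4 and 2 counts in cultures F1, F2, M1 and M2 (2.24% of whole DG), and the adhesion gene Esam 4, 0, 1 and 1 (1.51%). Emcn, a surface sialomucin, fell less, from 3.89 ± 0.164 CPM (SD, n = 2) to 0.655 ± 0.373 CPM (SD, n = 4), which is −2.53 in log2 terms (edgeR SE 0.47, adjusted p = 0.00131).

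Barrier transporters fell to between 1.75 and 7.42% of whole DG. Slco1c1, a transporter of thyroid hormone, stood at 2.64, 2.08, 0.382 and 0.293 CPM in cultures F1, F2, M1 and M2 against 45.1 and 44.3 CPM in whole DG (log2 difference −5.0, SE 0.58, adjusted p = 8.4e-05). Both female cultures lay above both male ones, without a call between the sexes (edgeR adjusted p = 0.746). Slco1a4, a transporter of organic anions, stood at 1.32, 1.13, 1.05 and 1.95 CPM against 17.5 and 19.2 CPM. Abcb1a, the drug efflux pump P-glycoprotein, had 14 counts in the 4 cultures together.

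Itm2a, a small membrane protein, and Ptprb, the phosphatase that acts on the receptor Tie2, made up 60.6% of the endothelial CPM of the cultures. Itm2a stood at 6.28, 6.16, 11.8 and 3.90 CPM in cultures F1, F2, M1 and M2 against 23.2 and 21.7 CPM in whole DG, 31.3% of its tissue level (log2 difference −1.67, SE 0.37, edgeR adjusted p = 0.00312). Ptprb stood at 2.40, 1.13, 1.91 and 2.34 CPM against 20.3 and 15.4 CPM (log2 difference −3.19, SE 0.31, adjusted p = 2.87e-05). Vwf, the clotting factor stored by endothelium, was at 1.07, 1.04, 0.191 and 0.195 CPM, and the surface proteins Ly6c1 and Ly6a were at 6.30% and 4.01% of whole DG. Without Itm2a and Ptprb, the other 10 genes stood at 3.82% of whole DG.

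Of the 7 mural cell genes, 4 were lower in cultures, 2 did not pass the test and 1 was not tested. Pdgfrb, the receptor that recruits pericytes, had 1 count in culture F1 and none elsewhere against 16.9 and 15.9 CPM in whole DG (ratio 726.4, interval 129.8 to 28750). Rgs5, a brake on G protein signalling abundant in pericytes, stood at 0.413, 1.99, 0.573 and 0.195 CPM in cultures F1, F2, M1 and M2 against 49.2 and 37.2 CPM (log2 difference −5.73, SE 0.55, edgeR adjusted p = 2.6e-05). Abcc9, a subunit of a potassium channel, had 6 counts, all in culture F2, against 84 and 76 in whole DG. Higd1b had 1 count, also in F2, against 15 in each whole DG library, and was not tested.

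The contractile genes were not all lower. Acta2, smooth muscle actin, stood at 3.80, 13.8, 4.97 and 2.24 CPM in cultures F1, F2, M1 and M2 and at 3.42 and 1.03 CPM in whole DG, and the groups overlapped (log2 difference 1.48, SE 0.79, edgeR adjusted p = 0.117). Tagln, the actin-binding protein transgelin, stood at 1.57, 5.38, 3.15 and 1.37 CPM against 2.26 and 2.13 CPM and overlapped too (log2 difference 0.39, SE 0.57, adjusted p = 0.553). Tagln's sign turned without culture F2 (log2 −0.11, adjusted p = 0.834). Its exons share 62.4% of their bases with the antisense gene Gm48529, which has no row in the bulk table used here, and 5.43% with Pcsk7.

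Myh11, the myosin heavy chain of smooth muscle, stood at 0.0826, 1.47, 0.0955 and 0 CPM in cultures F1, F2, M1 and M2 against 3.03 and 3.1 CPM in whole DG. Most of its culture counts, 17 of 19, were in F2. Its log2 difference was −2.83 (SE 0.99, edgeR adjusted p = 0.0282), and −5.44 without culture F2 (adjusted p = 0.000110). The call was lost without culture F1 or M1 (adjusted p = 0.0595 and 0.0574) and without either whole DG library (0.111 without F1, 0.117 without M2).

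Culture F2 had the highest CPM of the 4 cultures for 6 of the 7 mural genes, Pdgfrb being the exception. The class summed to 5.95, 23.2, 8.79 and 3.80 CPM in cultures F1, F2, M1 and M2 against 81.2 and 64.9 CPM in whole DG, or 8.15, 31.8, 12.0 and 5.21% of it. Without culture F2 the mean falls from 14.3 to 8.46%. The 5 genes other than Acta2 and Tagln held 7, 47, 7 and 2 counts. Of 12 further mural genes, F2 was highest for 2. Over the 26 marker genes with more than 3 counts in the cultures, M1 was highest for 8, F1 for 7, M2 for 6 and F2 for 5.

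**Figure D3:**
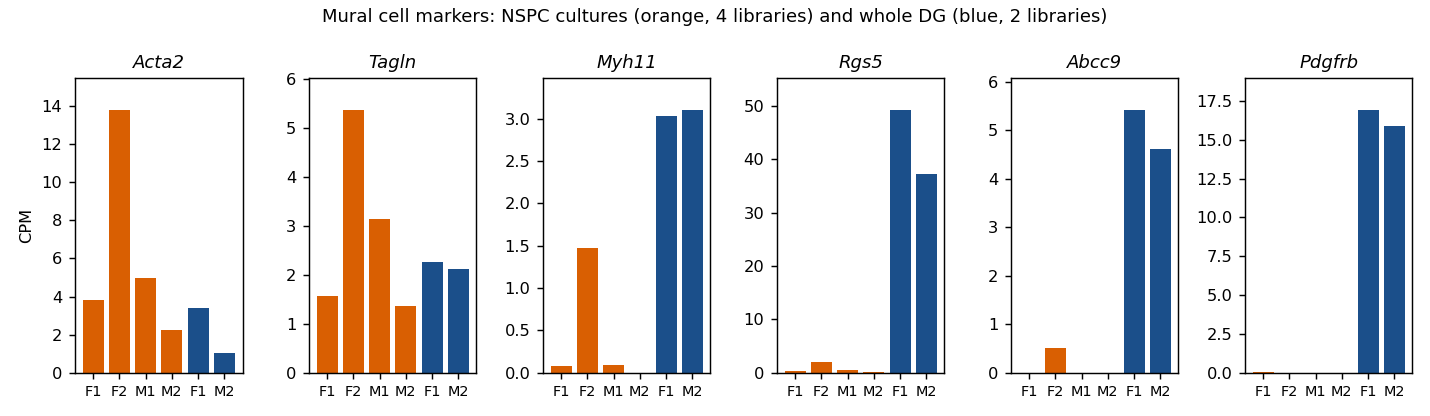
CPM of 6 mural cell genes in the 4 NSPC cultures (orange, F1, F2, M1 and M2) and the 2 whole DG libraries (blue, F1 and M2), 1 bar per library with each panel on its own scale from 0. Culture F2 is the tallest culture bar for 5 of the 6 genes, and the pericyte genes Rgs5, Abcc9 and Pdgfrb are far below whole DG in every culture.

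The fibroblast genes Dcn and Lum, which encode small proteoglycans that order collagen fibres, were low in cultures. Dcn stood at 1.07, 0.607, 1.72 and 0.390 CPM in cultures F1, F2, M1 and M2 (log2 difference −3.55, SE 0.56, edgeR adjusted p = 0.000505). In whole DG it was at 16.5 CPM in F1 and 5.96 CPM in M2, which themselves differed widely. Lum had 2 counts in the cultures against 119 in whole DG (ratio 82.64, interval 22.38 to 690.3).

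Ptgds, the lipocalin-type synthase of prostaglandin D2, was the most abundant of the 44 genes per length in cultures, at 28.0 RPKM, and second in whole DG after Hbb-bs, at 54.3 RPKM. It stood at 34.8, 40.1, 45.6 and 64.3 CPM in cultures F1, F2, M1 and M2 against 108 and 71.1 CPM in whole DG, 51.5% of the tissue level. The groups did not overlap, and the log2 difference was −0.96 (SE 0.26, adjusted p = 0.00918). Without whole DG F1 it was −0.62 and the call was lost (adjusted p = 0.128). Ptgds made up 97.9% of the fibroblast class in cultures, so the class level there is mostly that of Ptgds alone. Dcn and Lum stood at 8.45% and 1.20% of whole DG.

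Choroid plexus and ependymal genes went different ways. Ttr, the thyroid hormone carrier made by choroid plexus, had 2, 0, 2 and 0 counts in cultures F1, F2, M1 and M2 against 310 and 329 counts in whole DG (log2 difference −7.65, SE 0.52, edgeR adjusted p = 3.95e-06). Folr1, the folate receptor of choroid plexus, had 0, 0, 3 and 2 counts in cultures and 0 and 3 in whole DG, too few to test.

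Foxj1, the transcription factor that switches on motile cilia, was the single marker that rose. It stood at 16, 12.4, 9.84 and 11.7 CPM in cultures F1, F2, M1 and M2 against 4.84 and 2.86 CPM in whole DG, 325% of the tissue level (log2 difference 1.70, SE 0.32, edgeR adjusted p = 0.00138). Every culture lay above both tissue libraries. Of 9 further ependymal genes, 4 were tested and Dynlrb2, a dynein light chain, was called higher (1.93 ± 0.207 against 0.0608 ± 0.0860 CPM). Rarres2, which encodes the attractant chemerin, was at 11.9 ± 3.23 against 16.3 ± 0.464 CPM and Rsph1, a part of the ciliary radial spoke, at 0.810 ± 0.572 against 2.92 ± 0.256 CPM, and neither passed the test (adjusted p = 0.133 and 0.0505). The fourth, Cfap126, a cilium gene, was above both tissue libraries in every culture, at 0.760 ± 0.256 against 0.312 ± 0.0755 CPM, and did not pass the test either (adjusted p = 0.0696).

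Red blood cell transcripts, from cells that circulate in the vessels, were present in whole DG and nearly gone from cultures. Hba-a1, a haemoglobin alpha chain on chromosome 11, had 1, 0, 4 and 0 counts in cultures F1, F2, M1 and M2 against 617 and 623 in whole DG (log2 difference −8.31, SE 0.54, adjusted p = 2.97e-06). Hbb-bs, a beta chain on chromosome 7, had 1 count, in culture F2, against 948 and 909 (ratio 2579, interval 462.4 to 101900). Each has a near copy, and the sources used here do not state how shared reads were treated: annotated transcripts of Hba-a1 and Hba-a2 are 99.8% identical and those of Hbb-bs and Hbb-bt 92.6%. The copies were as low, with 4 counts of Hba-a2 and 1 of Hbb-bt in the 4 cultures, against 32.5 ± 0.269 and 35.3 ± 3.26 CPM in whole DG (SD, n = 2). Of 8 further red blood cell genes, 4 were tested and all 4 were lower, but Bpgm, a glycolytic enzyme of red blood cells, was lower only in part, at 27.1 ± 3.14 against 47.5 ± 0.980 CPM (57.0%). With Bpgm included, the 8 genes summed to 23.5 ± 2.64% of whole DG.

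Further genes were listed by cell type. Of 106 entries, 76 were tested, 56 were lower in cultures, 7 were higher and 13 did not pass the test. Over all 18088 genes tested, 41.7% were lower and 35.6% higher. Of 21 microglial entries, with Itgam entered more than once, 16 were lower, 1 was higher and 4 did not pass the test. The 4 were Irf8, Olfml3, Cd68 and Cd14, at 51.4, 61.4, 34.5 and 113% of whole DG. Summed CPM of the list stood at 31.6 ± 4.34% of whole DG (SD, n = 4), whereas its median entry stood at 4.45%. The highest of the list in cultures was Sall1, the gene called higher, at 36.4 ± 8.83 CPM. The lysosomal protease gene Ctss had 2 counts in the cultures against 46.9 ± 1.89 CPM in whole DG (ratio 1039, interval 287.1 to 8587).

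The other lists follow. Of 20 further endothelial genes 18 were lower, among them the VEGF receptor gene Flt1 at 1.34 ± 1.03 against 34.0 ± 1.92 CPM and the surface sialomucin gene Podxl at 14.5 ± 3.04 against 27.1 ± 0.630 CPM. Mfsd2a was not called, at 34.7 ± 15.1 against 20.7 ± 1.93 CPM (edgeR adjusted p = 0.128). The 20 genes summed to 32.8 ± 8.15% of whole DG. Of 11 mural genes tested 6 were lower, 3 higher and 2 not called, which is not far from the shares over all genes. Among the lower ones was Vtn, the adhesive protein vitronectin, with 1 count in the cultures against 33.3 ± 3.09 CPM. The 12 mural genes of this list summed to 197 ± 93.6% of whole DG. The 8 fibroblast genes tested held 7 lower ones, including the receptor gene Pdgfra at 2.69 ± 1.76 against 53.6 ± 2.79 CPM and the growth factor gene Igf2 with 2 counts against 12.3 ± 2.29 CPM. Pdgfra alone held 55.6 of the 97.3 CPM of this list in whole DG F1 and 51.6 of 86.7 CPM in M2. Of 4 choroid plexus genes tested 3 were lower, and Kl, the hormone co-receptor klotho, had 1 count against 19.7 ± 1.47 CPM. The fourth, Sostdc1, a secreted inhibitor of BMP signals, stood at 3.47, 1.04, 21.1 and 21.9 CPM in cultures F1, F2, M1 and M2 against 1.81 and 1.70 CPM in whole DG and did not pass the test (edgeR adjusted p = 0.0552). Among genes of other macrophages and white blood cells, 4 of 15 could be tested, and Lyz2, lysozyme, was at 0.731 ± 0.191 against 4.55 ± 0.236 CPM and Cd74, the invariant chain, at 0.138 ± 0.0990 against 2.34 ± 1.07 CPM. Cd163 was not called, at 1.86 ± 0.361 against 1.30 ± 0.630 CPM, and the 15 genes summed to 56.5 ± 10.4% of whole DG. Summed CPM of the further fibroblast, choroid plexus and ependymal lists stood at 6.68 ± 2.07, 47.8 ± 39.7 and 77.1 ± 19.6% of whole DG (SD, n = 4). The choroid plexus list stood at 16.4, 10.7, 80.4 and 83.8% in cultures F1, F2, M1 and M2. Sostdc1 held 3.47 of 4.63, 1.04 of 3.03, 21.1 of 22.7 and 21.9 of 23.7 CPM of it there.

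The 7 genes that rose included 5 at 10 CPM or more in cultures. Cspg4, the proteoglycan NG2 that pericytes share with oligodendrocyte precursors, stood at 99.7, 69.4, 99.3 and 216 CPM in cultures F1, F2, M1 and M2 against 17 and 20.3 CPM in whole DG (log2 difference 2.70, SE 0.46, edgeR adjusted p = 0.000829). Sall1, a transcription factor of microglia that is also known from neural progenitors, was at 36.4 ± 8.83 against 16.3 ± 1.22 CPM. The receptor gene Notch3, the myosin light chain gene Myl9 and the receptor gene Cd93 were at 27.6 ± 8.93, 15.8 ± 8.29 and 12.3 ± 2.76 CPM in cultures against 7.95 ± 1.84, 5.48 ± 0.187 and 5.30 ± 1.99 CPM. Pf4, a chemokine of platelets and border macrophages, was higher at a low level (2.49 ± 1.61 against 0.0912 ± 0.129 CPM).

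Female and male cultures were compared for the 12 markers with enough counts, and 0 were called by edgeR, against 0.0264% of 15140 genes tested; DESeq2 called 0 as well. At an unadjusted p under 0.05 there were 3 by edgeR and 2 by DESeq2, against 6.22% of all genes by edgeR. These were Slco1c1 at 2.36 CPM in female and 0.337 CPM in male cultures, Vwf at 1.06 and 0.193 CPM, and Ptgds at 37.4 and 54.9 CPM (edgeR adjusted p = 0.746, 0.746 and 0.777). The sexes did not overlap for any of the 3, with 2 cultures each. The 12 were Csf1r, P2ry12, Slco1a4, Ptprb, Vwf, Itm2a, Slco1c1, Acta2, Tagln, Dcn, Ptgds and Foxj1.

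The single-cell library gave the number of cells in which a UMI of each marker was seen. It held 14912 cells with 2001 to 8531 unique molecular identifiers (UMIs, each marking 1 captured RNA), a median of 4048, in 6 clusters numbered by the authors. These cells had 738 to 2499 genes each. Any cells of the cultures outside these ranges are not covered. With 1 library there is no test, and the intervals below cover counting error only. RNA free in the cell suspension also gives UMIs, and its part was not tested. The 18 markers with a row were seen in 8 to 3936 cells, and 5 of them in over 1% of cells, whereas the median listed gene was seen in 3.86%. A count of 0 of 14912 cells allows a share of up to 0.0201% of cells with a UMI, which is no limit on cells that express a gene.

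Ptgds was the most widespread, with 4839 UMIs in 3936 cells, 26.4% of all (exact binomial interval 25.7 to 27.1%) and 77.5 UMIs per 1000000. Foxj1 had 895 UMIs in 853 cells, 5.72% (5.35 to 6.11%). They were seen together in 222 cells, 26.0% of the Foxj1 cells and 5.64% of the Ptgds cells. Neither was held by 1 cluster: with each cell thinned to 2000 UMIs, Ptgds was seen in 16.3, 11.7, 14.9, 15.0, 15.1 and 9.16% of the cells of clusters 0 to 5, and Foxj1 in 2.62, 3.22, 2.55, 2.36, 2.73 and 2.29%. Before thinning, Ptgds was in 27.5, 20.6, 30.2, 28.6, 32.4 and 17.1%, at median depths of 3749, 3431, 4731, 4127, 5270 and 4086 UMIs.

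Vascular markers were spread thinly. Itm2a had 342 UMIs in 338 cells, 2.27% (2.03 to 2.52%), and Ptprb 168 in 166 cells, 1.11% (0.951 to 1.29%). The other 7 endothelial genes with a row (Slco1c1, Slco1a4, Emcn, Vwf, Pecam1, Ly6c1 and Esam) had 8 to 42 UMIs each. A UMI of at least 1 of the 9 endothelial genes was in 659 cells (4.42%), 2 different ones were in 9 cells, and 3 in none. At 2000 UMIs per cell no cell held 2 of them.

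Acta2 had 231 UMIs in 184 cells (1.23%, interval 1.06 to 1.42%) and reached 6 UMIs in a cell, as Ptgds did. Tagln had 52 UMIs in 45 cells, and both were seen in 3 cells, 1.63% of the Acta2 cells and 6.67% of the Tagln cells. Rgs5, the pericyte gene, had 11 UMIs in 11 cells, none of them an Acta2 or a Tagln cell. No cell held all 3 mural genes.

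Only P2ry12 and Fcer1g of the 17 microglial genes have a row. P2ry12 had 36 UMIs in 36 cells (0.241%, interval 0.169 to 0.334%) and Fcer1g 14 in 14 cells (0.0939%, 0.0513 to 0.157%), never 2 in a cell, and no cell held both. The choroid plexus genes Ttr and Folr1 had 11 and 14 UMIs, and 2 cells held 2 different genes of the choroid plexus and ependyma class. Of the neuronal genes, Syt1, Camk2a, Rbfox3, Snap25 and Gad1 were seen in 0.255, 0.288, 0.630, 0.751 and 1.08% of the same cells. The interval of Syt1 (0.180 to 0.350%) overlapped that of P2ry12. Slc17a7, the other neuronal gene, has no row in the table used here. Of granule neuron genes with a row, Lct, Plk5, Tdo2, Calb1 and Prox1 were seen in 0.0268, 0.0335, 0.0671, 0.355 and 5.23% of cells. What gave rise to such rare UMIs was not tested.

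**Figure D4:**
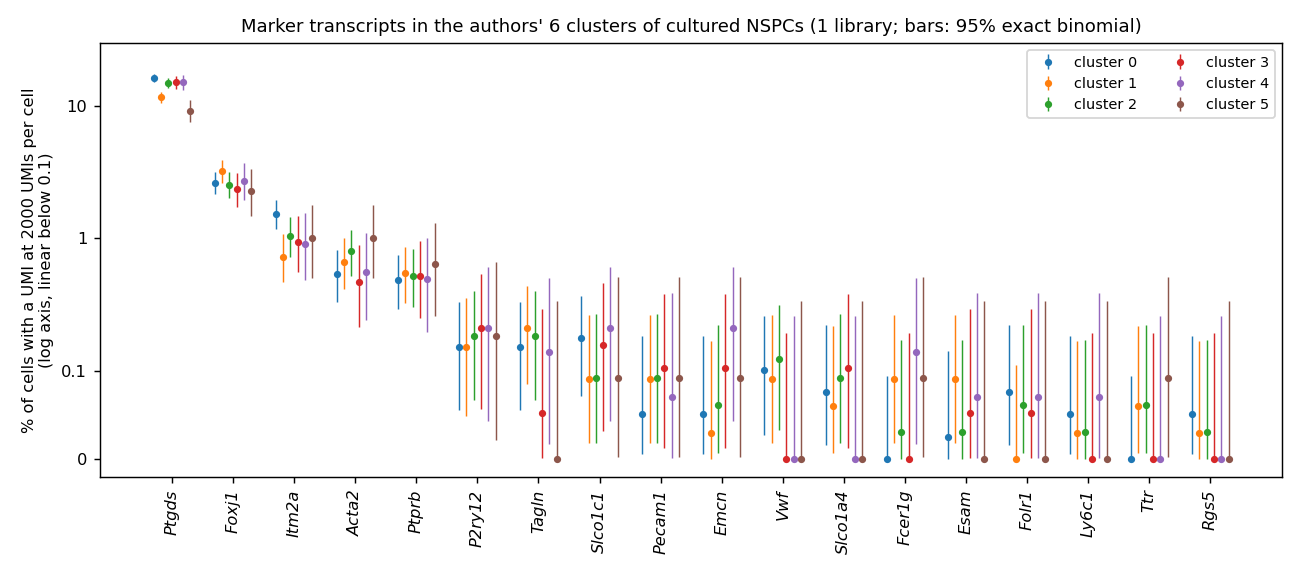
Percentage of cells with a UMI of each of the 18 markers in the authors' 6 clusters, each cell thinned to 2000 UMIs, with exact 95% binomial intervals from 1 library; the log axis is linear below 0.1. Ptgds, Foxj1, Itm2a, Acta2 and Ptprb are seen in every cluster, and the intervals of the rarer markers overlap between clusters.

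For the 18 genes with a row, levels in single cells and bulk cultures can be set side by side. Ptgds, Foxj1, Itm2a and Acta2 were the 4 highest of the 18 in both, at 77.5, 14.3, 5.48 and 3.70 UMIs per 1000000 and at 46.2 ± 12.8, 12.5 ± 2.59, 7.05 ± 3.38 and 6.20 ± 5.18 CPM in bulk cultures. Esam was lowest in single cells, at 0.128 UMIs per 1000000. Fcer1g had 14 UMIs but 0 counts in every bulk culture, and Csf1r, at 10.9 ± 1.97 CPM in bulk cultures, has no row in the single-cell table used here. Both scales count captured RNA of cultures, but the single-cell mixture came from 3 cultures whose relation to F1, F2, M1 and M2 the sources used here do not state.

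**Figure D5:**
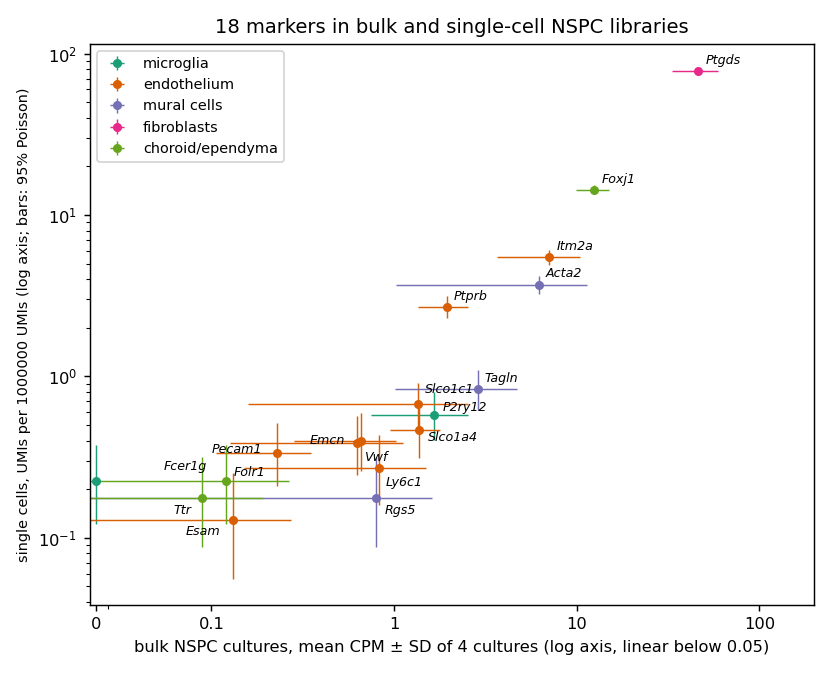
Bulk level in NSPC cultures (mean CPM ± SD of 4 cultures, log axis that is linear below 0.05) against the single-cell level (UMIs per 1000000 UMIs, log axis, 95% Poisson intervals) of the 18 markers in both tables, coloured by class. Ptgds and Foxj1 stand at the upper right, and most endothelial and choroid plexus genes lie under 1 UMI per 1000000.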

How the data were processed

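The bulk table holds raw counts per gene and library as deposited by the authors. Tools listed for it in the submitters' processing notes, without their roles, are featureCounts, Subread, HISAT2 2.0.6 and CASAVA 1.8.2, and the listed build is human although the symbols are mouse. The sources used here do not state counting options or use of strand. Single-cell values were deposited by the authors on a natural log scale, after scaling each cell to 10000 UMIs and adding 1. The same notes list Seurat 3.1.0 and Cell Ranger 3.1.0 for them.

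The 44 genes, the further lists, the tests and the rule for named genes (in each class the 3 highest in whole DG and in cultures, those not called lower, outlying ones, and of further lists the 2 highest in whole DG and those higher at 10 CPM or more) were chosen with earlier results of these data known. Other genes were named after their values were seen. A gene that the rule names is not reported here. Counts of all 6 libraries were tested with edgeR 4.0.16 (R 4.3.3; TMM scaling, default filter on low counts, robust quasi-likelihood F test, Benjamini-Hochberg adjustment over all tested genes, threshold 0.05), with group as the only term, and sexes in the 4 cultures likewise. SE is the log2 difference over the root of F. Whole DG has 2 animals, so p-values rest mainly on the spread between cultures where these hold counts. For markers at or near 0 counts in cultures, they rest on whole DG and on the spread that edgeR shares over genes. A class level is the mean over cultures of summed CPM over the whole DG mean. With 0 counts in the cultures, 3 counts over the group give a bound; with 1 to 3, the ratio of pooled counts has an exact 95% Poisson interval. These cover counting error only, since bulk reads lack molecular identifiers. RPKM use GENCODE M21 exon lengths (GRCm38), in which all 44 genes were found. UMIs were recovered from the natural log values, 100% of them within 0.01 of a whole number, and shares have exact Clopper-Pearson intervals. No further cell was filtered from the deposited values, no doublet caller was run, and 0 barcodes were repeated. Tests were tried on simulated counts. Alternatives were other scalings, DESeq2 1.42.0, limma 3.58.1 (voom), a fold threshold, other filters, thinned whole DG, a replicate block, a sex term, leaving out each library and leaving out the leading gene of a class.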

Additional observations from a re-analysis of the deposited data

Results flagged for a closer look

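Myh11 in culture F2, at 1.47 CPM, stood apart from cultures F1, M1 and M2, at 0.0826, 0.0955 and 0 CPM. The ratio of its gap to the nearest culture over the range of the 4 cultures was 0.935, above Dixon's 95% critical value for 4 samples. Among 16 markers with more than 10 counts in at least 1 culture, it was the only one so far apart, and chance gives about 5% of groups such a value.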

How the results depend on the processing

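The count of 39 lower markers was the same under other scalings, DESeq2, voom, no filter, thinned whole DG, a sex term and the replicate block, and was 37 with a 2-fold threshold, 36 of 38 tested with a stricter filter, 34 of 36 without overlapping genes (chosen after seeing the data) and 37 to 40 with each library left out. The count of higher markers was 1 in each. With the replicate block, Tagln turned to −0.58 on the log2 scale (adjusted p = 0.314), and with each library left out it ranged from −0.11 to 0.62. Deviations of same-named libraries from their group means, not the levels themselves, correlated at 0.0416 (F1) and 0.0543 (M2) over genes. Culture F1 with whole DG M2 gave −0.0416, and culture M2 with whole DG F1 gave −0.0543. These values do not settle whether the names pair the libraries. With the block 13512 genes were called, against 13976 without it. Myh11 also lost its call with the 2-fold threshold (adjusted p = 0.0644) and without the filter (0.0507), and Ptgds with the 2-fold threshold (0.454). The other 39 of the 42 markers kept their call in every alternative. Other scalings moved the median of all genes from −0.13 to between −0.23 and 0.05. Levels as a share of whole DG fell to 0.718% for microglia without Csf1r, 4.56% for endothelium without Itm2a, 6.65% for fibroblasts without Ptgds and 1.04% for choroid plexus and ependyma without Foxj1. The genes left out were the highest of their class in cultures, a choice that favours a fall. Cells with 2 different markers of a class went from 9 to 0 (endothelium), 3 to 1 (mural) and 2 to 0 (choroid plexus and ependyma) at 2000 UMIs, and to 0 in each at 3 or more markers. Between the sexes 0 markers were called in every alternative. At this depth a marker at 0 in a culture could stand at up to 0.248 to 0.293 CPM.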
